A study of Mus musculus with 14 samples.

Results

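Cdkn1a and 6 further target genes of the transcription factor p53 (Mdm2, Ccng1, Phlda3, Bax, Trp53inp1 and Sesn2) were followed across myeloid cells from mouse brain metastases (BrM), spleen and bone marrow. The 7 genes were listed by symbol, and every array probe of a listed symbol was taken; 6 of them, with 16 probes in all, were among the 19057 genes named on the array, and Bax was not analysed here. The question was whether Cdkn1a stood out in BrM alone or together with other p53 targets. The listed genes had been proposed from the difference between BrM and the other organs. For them that difference is therefore given as a description without a test.

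GFP+CD11b+ cells were sorted from C57Bl/6J mice aged 14 weeks, and their RNA was hybridized to 14 single-color bead arrays. The tumor-bearing mice were chimeras: lethally irradiated hosts reconstituted with hematopoietic stem cells from GFP-transgenic donors. In them GFP marked donor-derived cells and left resident host cells out of the sort. The main text of the paper does not state outright whether the naive mice were irradiated chimeras too. PyMT or EO771 mouse breast cancer cells had been implanted intracranially and grown for about 2 weeks, so the BrM were implanted lesions. There were 4 arrays of PyMT BrM, 2 of EO771 BrM, 3 of spleen and 1 of bone marrow from PyMT-bearing mice, and 2 each of spleen and bone marrow from naive mice, which stand in for the organs of EO771-bearing mice. The sample code of EO771 BrM 2 carries a pair of numbers, which may stand for a pool. Both naive bone marrow codes share a stem with naive spleen 1. PyMT BrM 3, PyMT spleen 1 and PyMT bone marrow 1 also share a stem. So do PyMT BrM 2 and PyMT spleen 2, and PyMT BrM 4 and PyMT spleen 3. Arrays thus need not equal mice, and arrays that share a stem may come from the same mouse. The main fits took arrays as independent, and p-values measure only the spread between these arrays.

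The sorting marker gene Itgam, which encodes CD11b, gave log2 signals of 7.29 to 7.94 in BrM and 5.74 to 8.87 in the other organs, above the median probe mean of 3.99. Ptprc, which encodes CD45, gave 4.12 to 6.25 on the arrays from PyMT-bearing mice, BrM and organs alike. On the EO771 BrM and naive arrays it gave 6.87 to 7.54, without overlap. In comparisons across these sets of arrays, an offset between the sets cannot be told apart from the tumor model or from tumor bearing. The cell mixture differed between the groups. The mean log2 signal of 14 measured neutrophil markers was 6.61 to 9.16 in BrM against 11.30 to 12.71 in the organs, and that of 13 macrophage markers was 11.40 to 11.70 against 8.46 to 9.98. The mean of 7 erythroid markers was 4.24 to 5.08 in BrM and 4.93 to 9.22 in the organs, overlapping at PyMT spleen 1, and that of 6 B cell markers was 4.02 to 4.83 against 5.64 to 8.56. The 10 epithelial markers averaged 4.14 to 5.41 in BrM against 3.59 to 4.24. Of these 2 were higher, Krt8 by 3.10 (limma adjusted p = 1.12e-05) and Cdh1 by 1.46 (adjusted p = 0.00401, lost without PyMT BrM 1, 3 or 4), and 8 did not pass, among them Epcam at -0.09 (adjusted p = 0.849). Throughout, fewer cells of a type and less RNA per cell cannot be told apart.

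p53 is a transcription factor that is stabilized after DNA damage and other stress and binds paired half-sites in the DNA of its targets. Its best-known target, Cdkn1a, encodes p21, an inhibitor of cyclin-dependent kinases (CDKs) that halts the cell cycle. p21 is also made in differentiating and activated macrophages, and its gene answers to many factors besides p53, so background knowledge does not tie its level to p53 alone.

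The promoter windows of the listed genes are shown because p53 binding sites are what the genes have in common by reputation. RefSeq windows of 300 bases, from 250 before to 50 after a gene start (build GRCm38.p6), were held for all listed genes but Trp53inp1 and searched for the p53 half-site consensus, which reads alike on both strands. A half-site lay in 8.36% of all 32851 windows. A full site, here 2 half-sites with no spacer and at most 1 mismatch in 20 letters, lay in 0.0883% of them. Cdkn1a has 2 windows, whose starts are 2790 bases apart on the plus strand of chromosome 17. The upstream window, chr17:29090729-29091028, held a full site beginning at base -51 from the start; the downstream one, chr17:29093519-29093818, held neither. Capitals mark the half-sites and the full site.
Cdkn1a upstream window: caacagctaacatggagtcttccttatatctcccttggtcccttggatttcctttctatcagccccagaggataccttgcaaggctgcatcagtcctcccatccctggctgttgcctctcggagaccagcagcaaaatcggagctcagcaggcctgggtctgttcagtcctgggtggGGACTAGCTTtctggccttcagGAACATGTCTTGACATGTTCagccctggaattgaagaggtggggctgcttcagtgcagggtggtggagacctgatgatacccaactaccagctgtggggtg
Cdkn1a downstream window: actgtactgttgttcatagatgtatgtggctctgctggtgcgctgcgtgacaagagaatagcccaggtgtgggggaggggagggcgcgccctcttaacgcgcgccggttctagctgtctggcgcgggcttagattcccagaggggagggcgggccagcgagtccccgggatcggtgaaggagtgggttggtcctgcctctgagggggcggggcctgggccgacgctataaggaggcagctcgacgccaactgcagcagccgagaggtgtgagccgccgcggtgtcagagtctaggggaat

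Ccng1 also held a full site, from base -195, in the stretch shown at chr11:40755437-40755496 on the minus strand. Mdm2 held a single half-site in its window, at chr10:117710910-117710969 on the minus strand. The window of Phlda3 held no half-site, though its last 8 bases, at the end of chr1:135766075-135766134 on the plus strand, match the first 8 of the 10 letters and are in capitals. Sesn2 had no match in its window either, and that of Bax held a single half-site. These matches are descriptions of letters, and the arrays did not measure binding.
Ccng1: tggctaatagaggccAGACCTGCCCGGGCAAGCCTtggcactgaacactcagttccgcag
Mdm2: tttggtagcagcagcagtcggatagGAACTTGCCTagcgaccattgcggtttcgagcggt
Phlda3: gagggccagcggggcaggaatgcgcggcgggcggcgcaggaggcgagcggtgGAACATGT

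Cdkn1a, the cell cycle inhibitor, had the largest difference between BrM and organs of the listed genes. Its brightest probe gave log2 signals of 11.43, 9.81, 9.90 and 9.88 in the 4 PyMT BrM and 11.98 and 11.87 in the 2 EO771 BrM. It gave 6.56, 6.09 and 8.20 in PyMT spleen, 6.15 in PyMT bone marrow, 6.70 and 6.29 in naive spleen, and 6.59 and 6.50 in naive bone marrow. The BrM arrays were all above the 8 organ arrays, with PyMT spleen 3 the highest outside BrM and PyMT BrM 1 apart from the other PyMT BrM. The mean (SD) was 10.81 (1.06) over 6 BrM arrays and 6.64 (0.67) over 8 spleen and bone marrow arrays, a log2 difference of 4.17 (SE 0.42) or 18.1-fold. The difference was 3.50 (SE 0.45) within the PyMT model and 5.40 (SE 0.55) for EO771 BrM against naive organs. The other Cdkn1a probes differed by 3.39 (SE 0.41) and 3.52 (SE 0.46) between BrM and the organs, and the 3 probes correlated over the 14 arrays at r = 0.98 to 0.99.

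**Figure D1:**
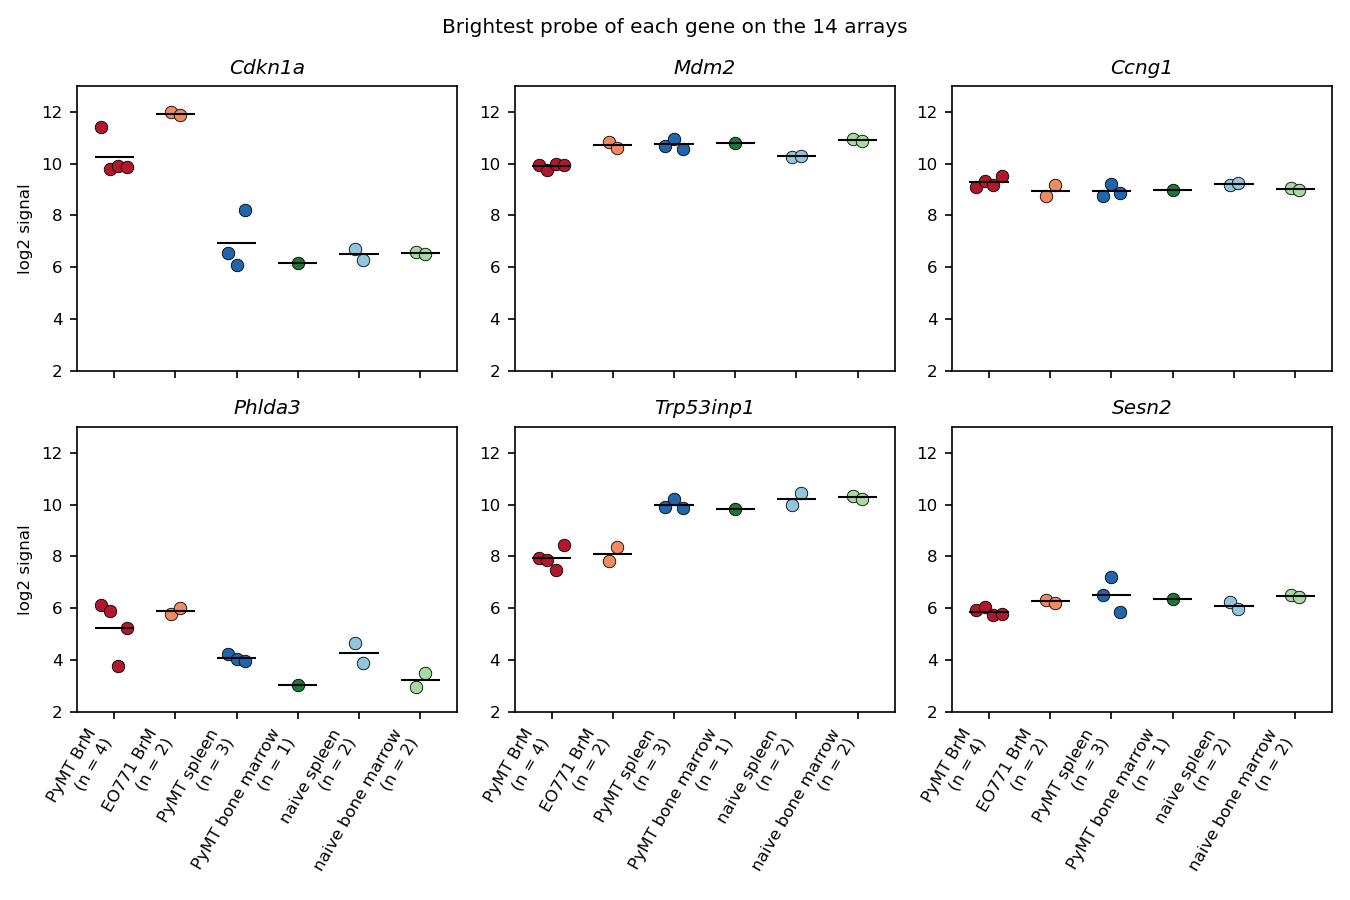
Log2 signal of the brightest probe of each measured gene (vertical axes) on each array of the 6 conditions, with 1 point per array and a line at the condition mean. Cdkn1a lay at 9.81 or above on all BrM arrays and at 8.20 or below elsewhere, while Trp53inp1 showed the opposite separation and Mdm2, Ccng1 and Sesn2 overlapped between BrM and the organs.

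Next in role are the genes that act back on p53. Mdm2 encodes the ubiquitin ligase that marks p53 for degradation and is itself induced by p53. Mdm2 gave 9.94, 9.75, 9.997 and 9.94 in PyMT BrM and 10.85 and 10.59 in EO771 BrM. In the organs it gave 10.69, 10.96 and 10.58 (PyMT spleen), 10.80 (PyMT bone marrow), 10.25 and 10.31 (naive spleen), and 10.95 and 10.88 (naive bone marrow). PyMT BrM formed the lowest of the 6 conditions, whereas EO771 BrM lay among the organs. Over all BrM the difference was -0.50 (SE 0.21), with -0.52 and -0.30 for the other probes, so none of the 3 probes was higher in BrM on average. Ccng1, which encodes cyclin G1, a partner of a phosphatase that acts on Mdm2, ran from 8.75 to 9.52 in BrM and from 8.77 to 9.26 in the organs. Its brightest probe differed by 0.14 (SE 0.16), or by -0.048 with arrays centred on reference genes. The dimmer probes differed by 0.73 (SE 0.23) and 0.46 (SE 0.27), and the correlation between its probes went as low as r = -0.03, so its probes disagreed.

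Phlda3, which encodes an inhibitor of Akt signaling, also had a higher mean in BrM. Its brightest probe gave 6.11, 5.89, 3.75 and 5.25 in PyMT BrM and 5.77 and 6.00 in EO771 BrM. Spleens gave 4.22, 4.04 and 3.95 (PyMT) and 4.64 and 3.87 (naive), and bone marrow gave 3.03 (PyMT) and 2.94 and 3.48 (naive). The lowest BrM array, PyMT BrM 3, lay within the organs' range, and the other 5 lay above it. The difference was 1.69 (SE 0.36), and 1.35 (SE 0.21) for the dimmer probe, whose BrM and organ arrays did not overlap. Both probes were dim, with means over all arrays of 4.50 and 4.30 against the median probe mean of 3.99.

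Trp53inp1, which encodes a stress-induced nuclear protein that promotes p53 activity and autophagy, ran the other way from Cdkn1a. It gave 7.94, 7.87, 7.48 and 8.44 in PyMT BrM and 7.83 and 8.35 in EO771 BrM. Spleens gave 9.92, 10.20 and 9.88 (PyMT) and 9.99 and 10.46 (naive), and bone marrow gave 9.81 (PyMT) and 10.34 and 10.22 (naive). All 6 BrM arrays lay below all 8 organ arrays. The difference was -2.12 (SE 0.18), a 4.34-fold lower signal, and -1.79 (SE 0.53) for its dimmer probe. Sesn2 encodes sestrin 2, a leucine sensor that restrains mTORC1 and also responds to the integrated stress response. Its signals were 5.72 to 6.31 (median 5.98) in BrM and 5.84 to 7.21 (median 6.38) in the organs, which overlapped. Its 3 probes differed by -0.38 (SE 0.20), -0.85 (SE 0.25) and -0.46 (SE 0.24).

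**Figure D2:**
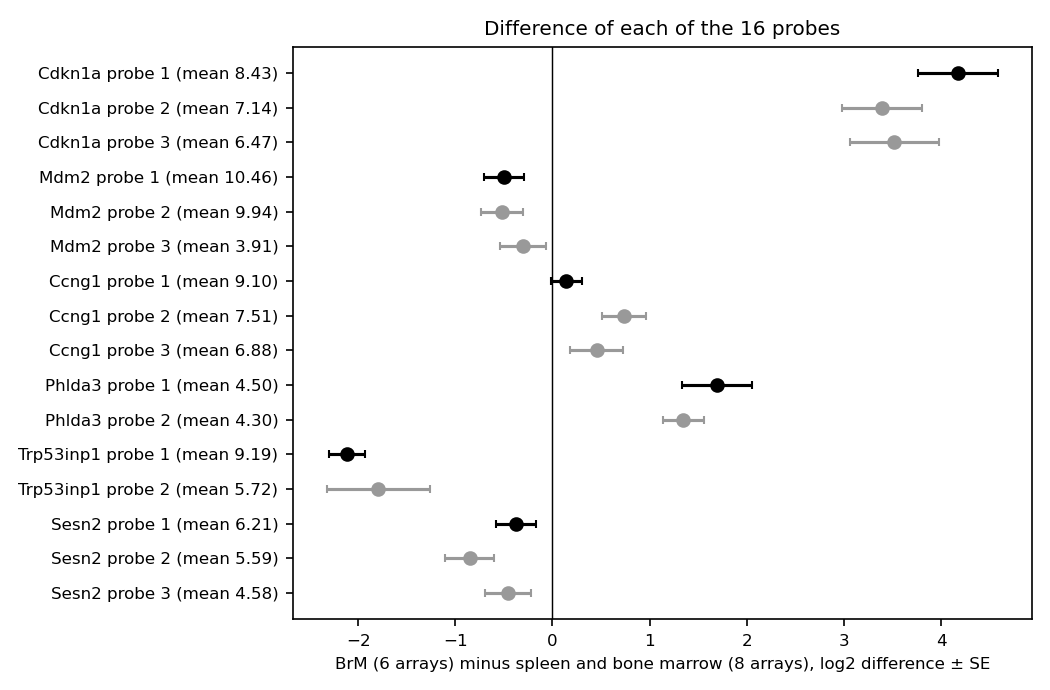
Log2 difference, 6 BrM arrays minus 8 organ arrays, (horizontal axis) for each of the 16 probes, with bars of 1 SE; black points are the brightest probe of a gene and the mean in brackets is its log2 signal over all arrays. The 3 Cdkn1a probes lay between 3.39 and 4.17, and the 8 probes of Mdm2, Trp53inp1 and Sesn2 were all below 0.

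The listed genes were chosen by this contrast, so no calls are given for the 6 measured ones. The threshold used here for all genes was an adjusted p under 0.01 in limma. Over all 19057 genes, 4.89% were higher and 4.13% lower in BrM at that threshold. No overlap between BrM and organ arrays, as in Cdkn1a and Trp53inp1, was seen in 7.97% of all genes. The median difference of the 6 measured genes was -0.12, beside -0.01 over all genes.

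The other p53 targets were measured next, from 3 lists of textbook targets that left the 7 genes out. Of 46 measured genes of 49 listed, 2 were higher in BrM, 7 were lower and 37 did not pass the threshold, with a median difference of -0.15 against -0.01 for all genes. Set beside the background of 4.89% and 4.13%, that is 2 of 46 higher and 7 of 46 lower. The background takes in genes of every signal level, dim ones included, and the share among genes of like signal was not computed. Against spleen alone the counts were 1 and 2, and with arrays centred on reference genes, which lowered every difference by 0.19, they were 1 and 8.

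Among 14 targets that arrest the cycle or feed back on p53, 1 was higher and 2 were lower. Plk3, a stress-responsive kinase, rose by 2.37 (SE 0.25, limma adjusted p = 1.08e-05). It gave 10.51, 9.44, 10.26 and 10.07 in PyMT BrM, 10.93 and 10.58 in EO771 BrM, and 7.44 to 8.81 in the organs. Plk3 thus did not overlap between BrM and organs, like Cdkn1a. Gadd45a, a DNA damage inducible regulator of growth arrest, fell by 1.75 (SE 0.33, limma adjusted p = 0.00182). Sfn, which encodes 14-3-3 sigma and blocks entry to mitosis, fell by 1.44 (SE 0.26, limma adjusted p = 0.0011), though its signals of 2.17 to 4.93 were near or under the typical probe; as the mean of all its probes it differed by -0.53 (adjusted p = 0.0655). Ppm1d, the phosphatase that switches the p53 response off, differed by -0.21 (SE 0.15, limma adjusted p = 0.477). In EO771 BrM against naive organs, Plk2, a kinase related to Plk3, was also called (2.57, SE 0.50, limma adjusted p = 0.00602).

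Of 17 targets with roles in cell death, 1 was higher and none was lower, with 16 not past the threshold. Dapk1, a death-associated kinase, rose by 1.24 (SE 0.27, limma adjusted p = 0.00493), and lost that call when any 1 of the 4 PyMT BrM arrays was left out (adjusted p = 0.0143 to 0.0158), with arrays centred on reference genes (0.0247) and against bone marrow only (0.114). Bbc3 and Pmaip1, which encode the BH3-only killers PUMA and NOXA, differed by -0.43 (SE 0.33, limma adjusted p = 0.508) and -0.14 (SE 0.43, adjusted p = 0.903). Fas, a death receptor, differed by -1.05 (SE 0.32, limma adjusted p = 0.039).

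Of 15 measured targets in DNA repair and metabolism, none was higher and 5 were lower, with a median difference of -0.49. Xpc, the damage sensor of nucleotide excision repair, fell by 2.49 (SE 0.39, limma adjusted p = 0.000361). Ddb2, which recognizes ultraviolet damage, fell by 1.56 (SE 0.26, limma adjusted p = 0.000714). The others were Fuca1, a lysosomal fucosidase (-1.40), Ulk1, a kinase that starts autophagy (-0.97), and Rrm2b, a ribonucleotide reductase subunit (-0.96). Sesn1, the relative of Sesn2 induced by p53, differed by 0.15 (SE 0.58, limma adjusted p = 0.921). Neutrophil markers were lower in BrM in 13 of 14 cases, beside these lower targets and Trp53inp1, and their part in the result was not tested.

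**Figure D3:**
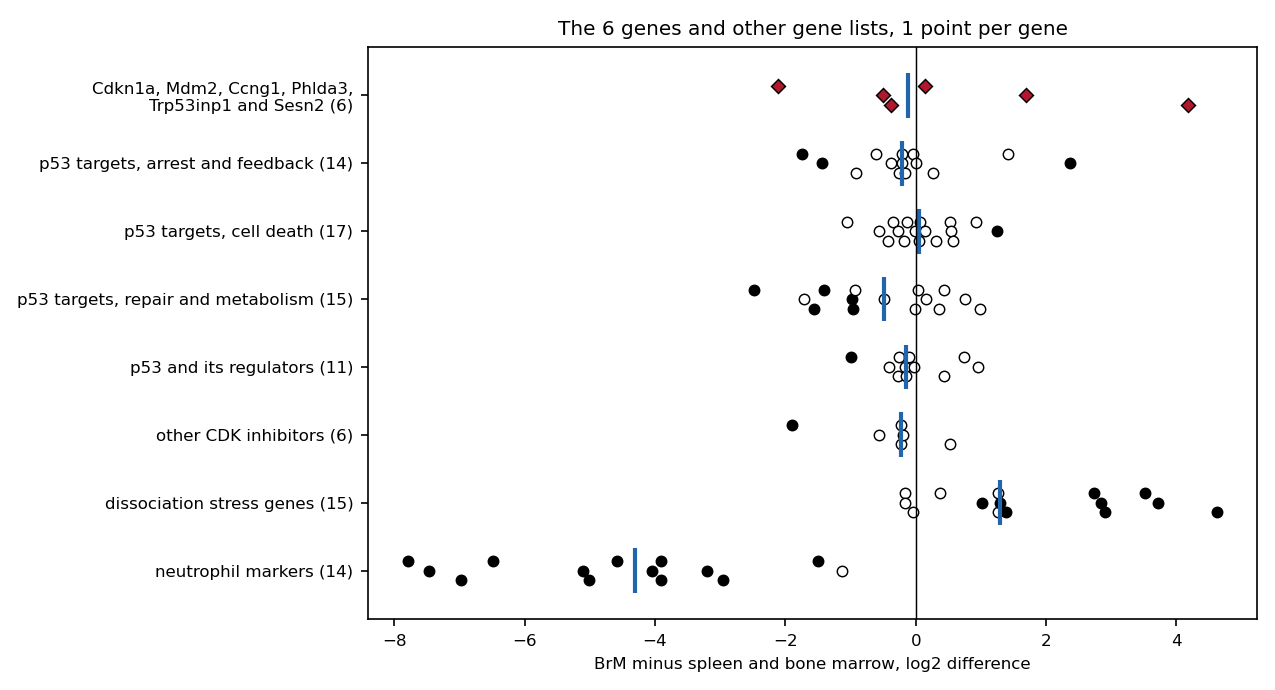
Log2 difference between BrM and spleen and bone marrow (horizontal axis) for the 6 genes (diamonds, not tested) and for 7 gene lists, with the number of measured genes in brackets; filled circles passed the limma threshold, open circles did not, and blue lines are medians. The p53 target lists had medians of -0.21, 0.04 and -0.49, the dissociation stress genes 1.29 and the neutrophil markers -4.31.

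Trp53, the gene of p53 itself, was not analysed here. Of 11 measured regulators of p53, none was higher and 1 was lower: Usp7, a deubiquitinase of both Mdm2 and p53, fell by 0.99 (SE 0.17, limma adjusted p = 0.000844). Mdm4, the partner of Mdm2 that masks p53, differed by -0.03 (SE 0.21, limma adjusted p = 0.956). Within the PyMT model the DNA damage kinase gene Chek2 was called higher, by 1.30 (SE 0.27, limma adjusted p = 0.00707), and over both models it differed by 0.96 (limma adjusted p = 0.0136).

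Among the 6 other CDK inhibitors, none was higher in BrM. Cdkn2d, which encodes p19 and inhibits CDK4 and CDK6, fell by 1.89 (SE 0.31, limma adjusted p = 0.000632). Cdkn1b and Cdkn1c, the nearest relatives of Cdkn1a, differed by -0.23 (SE 0.27, limma adjusted p = 0.704) and 0.53 (SE 0.26, adjusted p = 0.239). Of 11 proteins that p21 binds, the gene of CDK4 was higher by 1.28 (limma adjusted p = 0.00366), and cyclin D3 (Ccnd3, -2.48) and CDK2 (Cdk2, -1.53) were lower. The Cdk4 call was lost with arrays centred on reference genes (adjusted p = 0.0317), against spleen only (0.0367), against bone marrow only (0.0103) and without PyMT BrM 1, 2 or 3 (0.0107 to 0.0116), and the Cdk2 call was lost with the mean of all its probes (-1.10, adjusted p = 0.0157). Of 21 measured proliferation genes, 0 passed the threshold in limma between BrM and the organs, and 3 had an unadjusted p under 0.05. Their median difference was -0.36.

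The relatives of the listed genes gave 2 calls among 12, both for the Bcl2 family. Bok rose by 2.29 (SE 0.41, limma adjusted p = 0.00112) and Bcl2l11, which encodes the BH3-only protein BIM, rose by 1.01 (SE 0.20, limma adjusted p = 0.00253). The Bcl2l11 call was lost with arrays centred on reference genes (adjusted p = 0.0342), against spleen only (0.0324) and with the title number as a block (0.0187). The Bok call was lost against bone marrow only (adjusted p = 0.0361), and its difference was 1.44 as the mean of all its probes.

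Genes of other routes to Cdkn1a were listed as well. Of 14 measured inducers and repressors of it, all transcription factors but the ligand gene Tgfb1, 4 were higher: Egr1 by 3.55 (SE 0.45), Hif1a by 2.34 (SE 0.34), Cebpa by 2.11 (SE 0.30) and Cebpb by 0.92 (SE 0.22), with limma adjusted p from 6.54e-05 to 0.00983. Of 14 genes of the ATF4 stress response, to which Sesn2 also belongs, 3 were higher and 1 was lower, with a median difference of 0.44. The median was 0.0060 within the PyMT model and 1.24 for EO771 BrM against naive organs, and 0 of the 14 passed in limma for the difference between the models, with 5 at an unadjusted p under 0.05. Atf3 rose by 2.88 (SE 0.61, limma adjusted p = 0.00431), Nupr1 by 2.33 (SE 0.26, adjusted p = 1.72e-05) and Psat1 by 1.34 (SE 0.20, adjusted p = 0.00025), while Chac1, a glutathione-degrading enzyme induced by ATF4, fell by 2.56 (SE 0.39, adjusted p = 0.000309). The call of Atf3 was lost without PyMT BrM 1 or either EO771 BrM (adjusted p = 0.0116 to 0.0129).

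Many early response and heat shock genes, known to be switched on while tissue is dissociated into cells, were higher in BrM, as was Cdkn1a. In BrM 9 of 15 such genes were higher and 0 lower, Fosb by 4.62 (SE 0.49) and Hspa1a by 3.72 (SE 0.57) the most. Their mean log2 signal was 10.04, 8.89, 8.59 and 8.57 in PyMT BrM, 9.76 and 9.50 in EO771 BrM, and 7.18 to 7.97 in the organs. Among the organs the order differed from that of Cdkn1a. PyMT spleen 3, the highest for Cdkn1a (8.20), had a mean of 7.69. Naive spleen 2 had the highest mean, 7.97, with a Cdkn1a signal of 6.29. The 3 BrM arrays with the highest Cdkn1a (PyMT BrM 1 and both EO771 BrM) were also the 3 with the highest mean of these genes. The same 3 arrays had the lowest neutrophil marker means, 6.61, 6.83 and 6.64, against 7.81 to 9.16 on the other PyMT BrM. The part of dissociation and of cell mixture in the Cdkn1a signal was not tested.

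**Figure D4:**
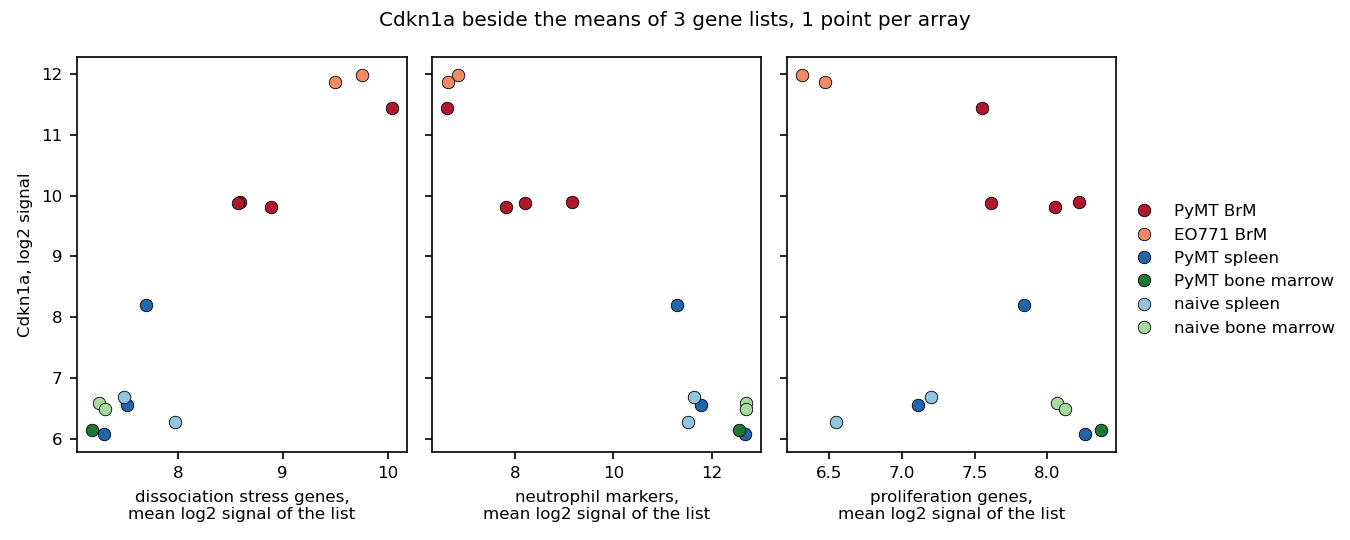
Log2 signal of Cdkn1a (vertical axis) beside the mean log2 signal of the dissociation stress genes, the neutrophil markers and the proliferation genes (horizontal axes), with 1 point per array colored by condition. PyMT BrM 1 (Cdkn1a 11.43) lay with the EO771 BrM arrays for the first 2 lists, and its proliferation mean of 7.55 lay between theirs (6.31 and 6.47) and that of the other PyMT BrM (7.61 to 8.22).

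The comparisons that had no part in choosing the genes came next. Between the 4 PyMT BrM and the 2 EO771 BrM, 0 of the 6 listed genes passed the threshold in limma, 2 had an unadjusted p under 0.05, and 1.94% of all genes passed. The Cdkn1a difference, PyMT minus EO771 BrM, was -1.67 (SE 0.56, limma adjusted p = 0.107), 3.19-fold, and -1.93 (adjusted p = 0.0443) and -1.61 (adjusted p = 0.201) for the dimmer probes. All 4 PyMT BrM lay under both EO771 BrM. For Mdm2 it was -0.81 (SE 0.21, limma adjusted p = 0.0428), again without overlap between the models, with -0.67 for the second probe and 0.60 for the dimmest one. Phlda3, Sesn2, Trp53inp1 and Ccng1 differed by -0.64 (SE 0.53), -0.40 (SE 0.32), -0.16 (SE 0.29) and 0.34 (SE 0.23), with limma adjusted p from 0.466 to 0.823. Of the 46 other p53 targets, 0 passed in limma and 12 had an unadjusted p under 0.05.

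The same comparison did reach proliferation genes, which were named after their values were seen. Birc5 (2.73, SE 0.43, limma adjusted p = 0.00481), Kif11 (2.52, SE 0.45, adjusted p = 0.00891) and Tyms (2.30, SE 0.40, adjusted p = 0.00779) were higher in PyMT BrM, and the 21 proliferation genes had a median of 1.57 against 0.06 for all genes. In limma 3 of the 21 passed, and 18 had an unadjusted p under 0.05. The direction of these genes of mitosis and DNA synthesis was opposite to that of Cdkn1a, which did not pass (limma adjusted p = 0.107). A link between them and Cdkn1a was not tested. Of the 15 dissociation stress genes, 0 passed in limma and 6 had an unadjusted p under 0.05, with a median of -0.62. Asns, the asparagine synthetase of the ATF4 response, differed by -2.73 (SE 0.47, limma adjusted p = 0.00727); it was the 1 gene of 14 on that list to pass, 10 had an unadjusted p under 0.05 and the median was -1.15. The epithelial genes Krt18 and Cdh1 were higher in PyMT BrM by 2.83 (SE 0.52, limma adjusted p = 0.00946) and 1.63 (SE 0.28, adjusted p = 0.00667). The other 8 of the 10 epithelial markers did not pass, 3 of the 10 had an unadjusted p under 0.05 and their median was 0.44. The part of tumor cell RNA in these differences was not tested.

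Whether the BrM difference itself depended on the model was tested as the PyMT difference minus the EO771 difference, with naive organs serving EO771. For Cdkn1a it was -1.90 (SE 0.70, limma adjusted p = 0.415), from 3.50 and 5.40. For Mdm2 it was -0.97 (SE 0.32, limma adjusted p = 0.337), from -0.85 and 0.12. In limma 0 of the 6 listed genes passed, 2 had an unadjusted p under 0.05, and 0.168% of all genes passed. The 2 models carry different organ sources, which cannot be told apart from the models here.

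Outside the brain, Cdkn1a was 0.38 higher in spleen (5 arrays) than in bone marrow (3 arrays; SE 0.49, limma adjusted p = 0.78). This contrast weighted the PyMT and naive condition means equally, so the 1 PyMT bone marrow array counted as much as the 2 naive ones. The largest of these differences among the listed genes was Phlda3, at 1.04 (SE 0.47, limma adjusted p = 0.299). None of the 6 genes passed in limma and 1 had an unadjusted p under 0.05, where 0.00525% of all genes passed. In the 3 PyMT spleens Cdkn1a was 0.45 above the 2 naive spleens (SE 0.59, limma adjusted p = 0.715), and that value was -0.17 without PyMT spleen 3. In that comparison 0 of the 6 genes passed in limma and 0 had an unadjusted p under 0.05, where 0.0787% of all genes passed. The dim Trp53inp1 probe differed by -1.93 between PyMT and naive spleen (SE 0.43, limma adjusted p = 0.041), while the bright one differed by -0.23 (SE 0.31, adjusted p = 0.728). PyMT spleen 2, part of both spleen comparisons, was most like PyMT bone marrow 1 over all probes (r = 0.949). Its mean r with the other PyMT spleens was 0.905. Its B cell marker mean was 5.74, against 5.64 to 6.53 in bone marrow and 8.11 to 8.56 in the other spleens. Its Itgam signal was 8.87, against 8.26 to 8.43 in bone marrow and 5.74 to 6.35 in the other spleens.

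**Figure D5:**
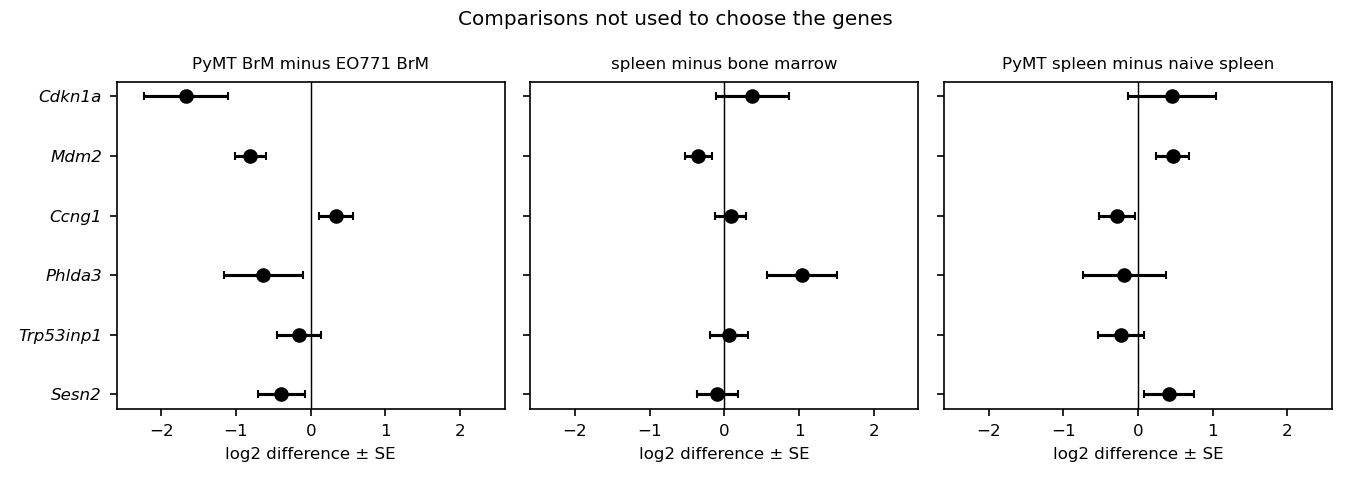
Log2 difference with bars of 1 SE (horizontal axes) for the brightest probe of each listed gene in PyMT BrM against EO771 BrM, spleen against bone marrow, and PyMT spleen against naive spleen. Cdkn1a (-1.67) and Mdm2 (-0.81) lay farthest below 0 in the first comparison, and no gene passed the limma threshold in any of the 3.

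To place Cdkn1a among all genes, each of the 19056 others was ranked by its Pearson correlation with Cdkn1a over the 14 arrays, as a description, since all points share the split between BrM and organs. The 5 most alike were Emp1 (r = 0.98), an epithelial membrane protein gene, Uck2 (0.98), a uridine-cytidine kinase, Slc6a8 (0.98), a creatine transporter, Plk3 (0.98) and Col18a1 (0.97), a collagen chain. Emp1 gave 12.58, 11.24, 10.66 and 11.20 in PyMT BrM, 13.56 and 13.12 in EO771 BrM, and 4.78 to 6.78 in the organs. Emp1 and Cdkn1a thus shared their highest BrM arrays, and PyMT spleen 3 was the highest organ array for both. Plk3 was the sole p53 target of the 4 lists used here among these 5.

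The listed genes lay far apart in that ranking. Phlda3 was 525th (r = 0.82), Ccng1 7792nd (r = 0.09), Mdm2 15808th (r = -0.44), Sesn2 16250th (r = -0.48) and Trp53inp1 18882nd (r = -0.91). With the mean of each condition removed, r with Cdkn1a was 0.89 for Emp1 and 0.75 for Plk3. For Phlda3 it was 0.29, and for Mdm2, Ccng1, Sesn2 and Trp53inp1 it was below 0, from -0.61 to -0.22. Emp1 and Plk3 had been picked by their r on these same arrays, unlike the listed genes. PyMT BrM 1 and PyMT spleen 3 were the highest of their conditions for both Cdkn1a and Emp1. These correlations were not computed without those arrays.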

How the data were processed

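Signals of 14 arrays (mouse WG-6 v2 bead arrays) were deposited by the authors as log2 values after background correction and quantile normalization; the submitters' processing notes name GenomeStudio 2011.1 and limma, and the background method is not given in the sources used here. No value column lacked a sample. All 45281 probes were kept; 34885 carried 1 gene symbol, 18 several and 10378 none in the platform annotation. A gene was read from its probe with the highest mean. Comparisons were fitted with limma 3.58.1 in R 4.3.3 (lmFit, eBayes, two-sided), Benjamini-Hochberg adjusted over all probes and called at an adjusted p under 0.01, and the code was tested on simulated data. The listed genes and the 17 gene lists (228 genes, 210 measured) were chosen with earlier results of these data known. Named were all listed genes, up to 2 largest called rises and falls per list, Mdm4, and the 5 genes most correlated with Cdkn1a; other genes were named after their values were seen. Replicate numbers and code stems pair arrays differently, and the main fits used neither. Deviations from condition means correlated at -0.09 to 0.05 between same-numbered arrays and -0.04 to 0.01 between arrays with a shared code stem. In a condition of 2 arrays these deviations are mirror images, so the correlations cannot exclude a pairing. The precision is limited by the number of arrays.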

Additional observations from a re-analysis of the deposited data

Results flagged for a closer look

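Within groups of 4 to 8 arrays, 8 of 48 checks of a probe of the listed genes found an array far from the others. For a single check within 1 uniform group, chance gives about 1 in 20. The checks were not independent, since PyMT BrM is part of all BrM and each gene has several probes. The groups of all BrM and of all organs also mix conditions, so the count cannot be set against 1 in 20. For the brightest Cdkn1a probe, PyMT BrM 1 (11.43, next 9.90) lay apart from the other PyMT BrM, its gap being 0.939 of the range, and 0.889 for the second probe. PyMT spleen 3 lay above the 7 other organ arrays for all 3 Cdkn1a probes, by 0.712 of the range for the first (8.20, next 6.70), 0.628 for the second and 0.547 for the third. For Phlda3, PyMT BrM 3 (3.75, next 5.25) lay below the other BrM by 0.637 of the range. For the third, dim Sesn2 probe, PyMT BrM 2 lay above the other PyMT BrM by 0.968 of the range and above all BrM by 0.782.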

How the results depend on the processing

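The Cdkn1a difference between BrM and organs stayed between 3.69 and 4.55 over all alternatives, 3.94 to 4.40 with 1 array left out, and that of Trp53inp1 between -2.31 and -1.96. Among listed genes in that comparison, the mean of all probes moved Ccng1 to 0.44 and no other value by more than the spread between arrays. Among named genes of the lists, it gave smaller differences for Ccnd3 (-1.23), Hif1a (1.13), Hspa1a (2.54) and Krt8 (1.56), among others, and these calls held. For Bcl2l11 the difference was larger (1.16). The count of other p53 targets higher in BrM (2) was 1 with arrays centred on reference genes, 1 against spleen only, 4 at an adjusted p under 0.05, 4 with the 6 conditions weighted equally and 1 to 2 with 1 array left out (1 without PyMT BrM 1 or PyMT BrM 2). It was 1 without PyMT BrM 1 and PyMT spleen 3 together, an alternative chosen after seeing the data. The count of lower ones (7) was 4 with the mean of all probes, 2 against spleen only, 4 with the replicate number as a block and 6 to 7 with 1 array left out. With the title number as a replicate block the Cdkn1a difference was 4.36, and 4.10 with the code stem as a block. Between PyMT and EO771 BrM, 1 listed gene passed at an adjusted p under 0.05 (main 0). Cdkn1a turned to -0.050 between naive spleen and naive bone marrow, and to -0.17 between PyMT and naive spleen without PyMT spleen 3 (range -0.17 to 0.88 with 1 array left out). The cause was not tested. Against spleen only, 9 named genes lost their call (adjusted p = 0.0103 to 0.0367: Gadd45a, Sfn, Dapk1, Usp7, Cdk4, Bcl2l11, Atf3, Slc4a1 and Cdh1), and against bone marrow only 7 did (0.0103 to 0.114: Dapk1, Ddb2, Cdk4, Bok, Atf3, Gpnmb and Cdh1). The title number as a block ended the calls of Dapk1 (0.0289), Bcl2l11 (0.0187) and Cdh1 (0.0237).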
